A study of Mus musculus with 8 samples.

Results

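Proteasome subunits are described here by the mRNA levels of 34 genes in mouse embryonic fibroblasts (MEFs) that carry a wild-type or a mutated form of Pontin, with and without glucose. The members are the genes of the deposited table whose symbols begin with Psma, Psmb, Psmc or Psmd followed by a number. The inducible subunits of the immunoproteasome, Psmb8, Psmb9 and Psmb10, were left out of the rule. Of 36 such symbols among the 49492 rows, 34 had a value of at least 1 CPM (a gene's read count relative to the library size that the authors had scaled) in at least 2 of the 8 samples. Psma8, a subunit form of the testis, reached at most 0.0419 CPM (2 reads), and Psmb11, a form of the thymus, at most 0.138 CPM (6 reads), so both stayed outside. The member nearest to the limit was Psmd10, whose lowest value was 12.1 CPM. The 34 members were thus far from the limit, with 576 to 26240 reads per gene and sample, and 16232 genes of the whole table passed the same filter.

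All cells were Pontin f/f MEFs in which the endogenous gene had been removed with a Cre virus, and which stably expressed Flag-tagged Pontin after lentiviral infection and hygromycin selection. WT cells carried the wild-type protein, and RA cells a form with 2 arginines replaced by alanine, the residues that are methylated in the study. Each line was kept in normal medium (CTL) or in glucose-free medium with dialyzed serum (GS), with 2 replicates per group. WT and RA are separate selected lines, so the Pontin form and the line cannot be told apart. Nothing in the labels says that replicates came from separate cultures, so p-values measure the spread between these samples, which may be technical. The time without glucose is not given in the sources used here.

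Ruvbl1, which encodes Pontin, stood at 28.4 and 27.6 CPM in WT without starvation and at 27.9 and 28.4 with it. In RA it stood at 36.8 and 32.0 CPM before and 45.05 and 42.9 after starvation. These reads do not tell the added copy from the endogenous gene and do not check the labels. Totals ran from 43205841 to 56363034 reads per sample. Of 10 fibroblast markers 9 passed the filter, and their summed level was 10007 to 10087 CPM in WT before and 5313 to 5406 after starvation, against 9918 to 10246 and 7042 to 7059 in RA. Col1a1, Col1a2, Col3a1, Vim and Pdgfra fell in both lines. In RA the means of Fn1 (2370 to 3173) and Dcn (13.5 to 34.9) rose. Of 14 markers of leukocytes, epithelium and endothelium 5 passed. Summed leukocyte markers ran from 13.0 to 13.5 CPM in WT before and 23.8 to 24.3 after starvation, and from 15.7 to 17.2 and 20.7 to 21.1 in RA, most of it Csf1r, while Cd3e was at 0 in all samples and Ptprc in all but 1. Summed endothelial markers were at 2.52 to 3.39 CPM in WT before and 8.92 to 9.43 after starvation. In RA they were at 2.02 to 3.43 and 5.99 to 6.34. The rise in WT was in Kdr (2.26 and 1.73 to 6.24 and 6.54) and Tek (0.304 and 0.242 to 3.06 and 2.32). Pecam1 (0.478 and 0.302 to 0.0838 and 0.0548) and Cdh5 (0.348 and 0.242 to 0.0419 and 0) fell in WT. Both rested on few reads and did not pass the filter. The rise in RA was mostly Kdr (2.76 and 1.63 to 5.21 and 5.66). Summed epithelial markers were between 0.377 and 0.564 CPM in WT, and went from 0.310 to 0.368 up to 1.16 to 1.25 in RA. The rise in RA was in Cdh1 (0.322 and 0.155 to 1.18 and 1.16 CPM). Epcam did not rise there (0.046 and 0.155 to 0.0783 and 0), and Krt14 and Krt5 were at 0 in all samples. The marker sums also differed between media, and their part in the results was not tested.

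The proteasome is the large protease that degrades proteins tagged with ubiquitin. Its core particle, 20S, is a barrel of alpha rings, which gate the entry, and beta rings, which hold the proteolytic sites. The cap, 19S, has a base of ATPases that unfold substrates and feed them into the core, and a lid that removes ubiquitin. Dedicated chaperones assemble both particles. In mammalian cells the transcription factor encoded by Nfe2l1 raises proteasome genes together when proteasome activity falls short, through antioxidant response elements (ARE) in their promoters. Starved cells depend on the balance of proteasomal and autophagic degradation for amino acids, and FOXO factors act on genes of both routes.

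Promoters are shown for 4 members whose mRNA rose in starved WT (Psmd4, Psmd8, Psmc6 and Psmd9) and for 2 of those that fell most (Psmd1 and Psmd5), since the members moved largely together and these stood at the ends. Each is the 250 bases before the start site, 5′ to 3′ on the strand of the gene, from RefSeq on GRCm38.p6, a newer build than the mm9 genome to which the reads were mapped. Capitals mark matches, on either strand, to an ARE core (TGACNNNGC), a CCAAT box (CCAAT), a GC box (GGGCGG), an ETS core (CCGGAAG), a FOXO site (GTAAACA) or an E-box (CACGTG). The Psmd4 window is chr3:95042615-95042864 on the minus strand, Psmd8 chr7:29180674-29180923 on the minus strand, Psmc6 chr14:45329574-45329823 on the plus strand, Psmd9 chr5:123227940-123228189 on the plus strand, Psmd1 chr1:86064369-86064618 on the plus strand and Psmd5 chr2:34870963-34871212 on the minus strand.
Psmd4: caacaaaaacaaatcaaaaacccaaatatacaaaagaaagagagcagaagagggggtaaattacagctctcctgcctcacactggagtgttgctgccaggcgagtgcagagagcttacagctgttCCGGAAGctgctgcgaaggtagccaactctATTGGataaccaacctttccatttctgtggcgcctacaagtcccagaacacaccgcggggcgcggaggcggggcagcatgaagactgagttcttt
Psmd8: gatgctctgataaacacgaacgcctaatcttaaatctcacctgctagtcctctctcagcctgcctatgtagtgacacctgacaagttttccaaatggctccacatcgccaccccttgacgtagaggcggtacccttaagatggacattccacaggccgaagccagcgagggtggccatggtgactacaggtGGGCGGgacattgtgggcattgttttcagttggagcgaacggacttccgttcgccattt
Psmc6: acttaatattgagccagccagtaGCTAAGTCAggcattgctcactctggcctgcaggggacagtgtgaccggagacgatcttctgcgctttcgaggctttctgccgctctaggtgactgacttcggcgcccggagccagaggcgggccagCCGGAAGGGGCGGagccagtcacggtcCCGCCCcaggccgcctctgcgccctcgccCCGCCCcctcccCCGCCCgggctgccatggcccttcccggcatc
Psmd9: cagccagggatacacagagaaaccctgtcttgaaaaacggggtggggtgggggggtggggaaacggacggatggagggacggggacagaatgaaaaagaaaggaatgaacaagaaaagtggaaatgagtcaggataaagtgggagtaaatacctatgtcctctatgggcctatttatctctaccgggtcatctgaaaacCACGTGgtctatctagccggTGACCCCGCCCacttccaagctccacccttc
Psmd1: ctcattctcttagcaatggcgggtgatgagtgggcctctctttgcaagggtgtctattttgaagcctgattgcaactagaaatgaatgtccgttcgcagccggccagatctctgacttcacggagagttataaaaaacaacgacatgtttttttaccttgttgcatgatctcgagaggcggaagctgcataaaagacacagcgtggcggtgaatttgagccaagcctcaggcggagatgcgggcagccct
Psmd5: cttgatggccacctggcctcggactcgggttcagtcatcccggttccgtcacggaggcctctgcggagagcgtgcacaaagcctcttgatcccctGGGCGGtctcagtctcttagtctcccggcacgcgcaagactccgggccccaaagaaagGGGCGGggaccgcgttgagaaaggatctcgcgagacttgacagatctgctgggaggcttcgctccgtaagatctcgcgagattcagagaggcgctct

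The windows shown differ in the motifs they hold. Psmd4 had an ETS core 125 bases and a CCAAT box 95 bases before the start. Psmc6 had an ARE core, an ETS core with a GC box directly after it, and 3 further GC boxes. In Psmd9 an ARE core and a GC box shared bases, and an E-box lay upstream of them. Psmd8 had 1 GC box and Psmd5 had 2, and none of the letters searched was in the window of Psmd1.

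Of the 34 members 28 had an entry in the promoter table. An ARE core was in 5 of the 28 (17.9%), against 11.5% of all 27025 genes with a promoter. GC boxes were in 17 members (60.7%, against 35.4%), ETS cores in 9 (32.1%, against 7.83%), CCAAT boxes in 11 (39.3%, against 37.5%) and E-boxes in 2 (7.14%, against 6.86%). The FOXO letters were found for 0 of the 28 members, against 3.54% of all genes. With so low a share, 0 of 28 is not read as a lack. A match describes the letters of a window and is no sign of binding, and longer stretches upstream were not searched.

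Levels were first compared among members in normal WT, per kilobase of annotated exon. That length joins the exons of all annotated coding mRNAs of a gene, so it can exceed the length of the mRNA present. The subunits of the particles ranged from 42.2 to 190 CPM per kb. Psmd7, a lid subunit paired with the deubiquitinase, was highest at 190 CPM per kb, followed by the catalytic subunit Psmb7 at 180 and the base scaffold Psmd2 at 165. The lowest subunits were the lid subunits Psmd11 and Psmd12 at 42.2 and 45.3 and Psmb1 at 47.9. The place of Psmb1 depends on its 3.43 kb of exon, against 0.766 to 1.18 kb for the other beta ring genes. Its mean of 164 CPM was below only that of Psmb7 (208) in the beta ring. The 3 assembly chaperones of the base were the lowest of all members, with Psmd10 at 12.9, Psmd9 at 14.1 and Psmd5 at 26.8 CPM per kb. Psmd10 and Psmd9 were also the lowest members in CPM, with means of 18.9 and 36.5. Psmd5, with 4.40 kb of exon, was not, at 118 CPM. Exon lengths come from an annotation of another build, so small differences in this order are not read.

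The first comparison asked how proteasome genes respond to glucose starvation in cells with wild-type Pontin. Most subunit genes fell: of 34 members 29 were called lower and 4 higher, and only Psmb1 was not called (limma, BH-adjusted p under 0.05). The summed level of the members was 5329 and 5481 CPM in normal WT and 4052 and 4224 in starved WT. The median log2 change was -0.46, against 0.0049 over all genes tested. Of all genes 78.6% were called in this comparison, 39.3% higher and 39.2% lower, so the share of members called (97.1%) is to be read against that background, while the share called lower (85.3%) stood well above it. All values are relative to the library total, and fewer cells of a type and less RNA per cell cannot be told apart in bulk samples.

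**Figure D1:**
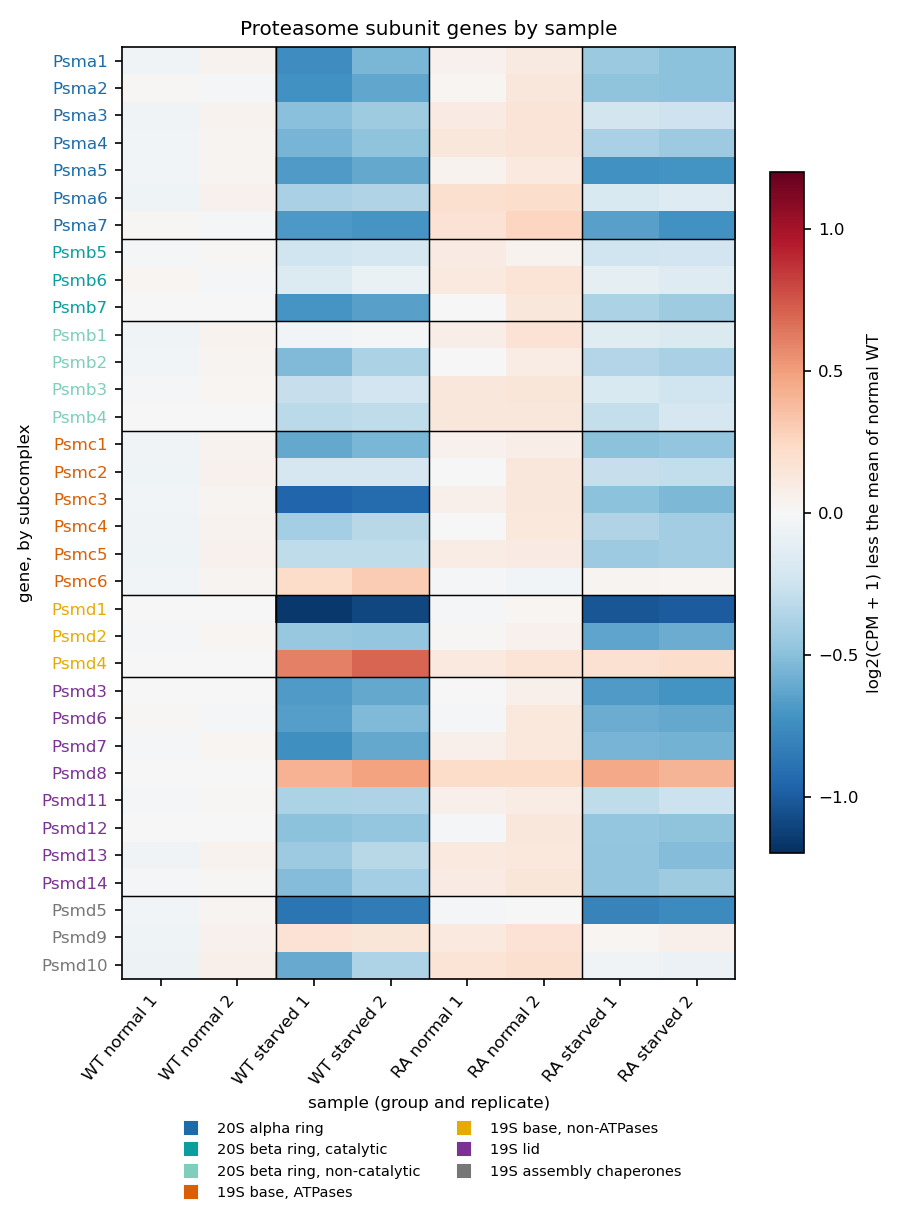
Log2(CPM + 1) of each of the 34 members (vertical axis, in order of subcomplex, with names coloured by it) in each of the 8 samples (horizontal axis), less the mean of the 2 normal WT samples. Blue marks lower and red higher values. Most rows were blue in starved samples of both lines, while Psmd8 was red in both and Psmd4 was reddest in starved WT.

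Each part of the particle took part in the fall in WT. All 7 alpha ring genes fell, with a median of -0.65, and the smallest change was in Psma6 (-0.38). Of 7 beta ring genes 6 fell, with a median of -0.25. The proteolytic subunits were uneven: Psmb7, which cuts after basic residues, fell by 0.68, while Psmb5, which cuts after hydrophobic residues, fell by 0.23 and Psmb6, which cuts after acidic residues, by 0.12. Of the 6 ATPases 5 fell, and of 8 lid genes 7 fell, among them the deubiquitinase Psmd14 (-0.46). The median was -0.34 for the ATPases and -0.47 for the lid. None of the 14 genes of the core rose, at an unadjusted p under 0.05 or with edgeR or DESeq2 on the recovered reads either (0 calls each).

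The members that fell most were a scaffold, an ATPase and an assembly chaperone of the base of the cap. Psmd1, a large scaffold of the base, was at 224 and 225 CPM in normal WT and at 100 and 105 in starved WT. The groups were far apart, and the log2 change was -1.12 (SE 0.038, limma BH-adjusted p = 3.66e-14). Psmc3, an ATPase of the base, was at 244 and 255 CPM in normal WT and 128 and 131 in starved WT. Starved samples were lower without overlap, with a change of -0.94 (SE 0.041, limma BH-adjusted p = 9.05e-13). Psmd5, a chaperone of base assembly, was at 115 and 121 CPM in normal WT and 63.6 and 65.2 in starved WT. Both starved samples were again lower, and the change was -0.86 (SE 0.042, limma BH-adjusted p = 4.99e-12).

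The genes that rose against this trend were 3 subunits of the cap and 1 of its assembly chaperones. Psmd4, the ubiquitin receptor of the cap, was at 148 and 147 CPM in normal WT and 225 and 240 in starved WT. It had the largest rise, with starved samples above normal ones and a log2 change of 0.65 (SE 0.040, limma BH-adjusted p = 1.23e-10). Psmd8, a lid subunit, was at 174 and 175 CPM in normal WT and 233 and 245 in starved WT. The groups did not overlap and the change was 0.45 (SE 0.038, limma BH-adjusted p = 7.15e-09). Psmc6, an ATPase, was at 181 and 190 CPM in normal WT and 217 and 230 in starved WT, a change of 0.26 (SE 0.040, limma BH-adjusted p = 1.31e-05). Psmd9, an assembly chaperone, was at 35.1 and 37.9 CPM in normal WT and 41.4 and 40.3 in starved WT. Its rise of 0.16 was small (limma BH-adjusted p = 0.0145), and it was not called without normal WT replicate 1 (0.10, adjusted p = 0.168), without starved WT replicate 1 (0.14, adjusted p = 0.0743) or with total-read scaling (0.087, adjusted p = 0.156). The exons of Psmd9 share 1849 of 7248 bases with Gm26745 on the opposite strand, so its value is uncertain where reads were counted without strand, which the sources used here do not state.

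**Figure D2:**
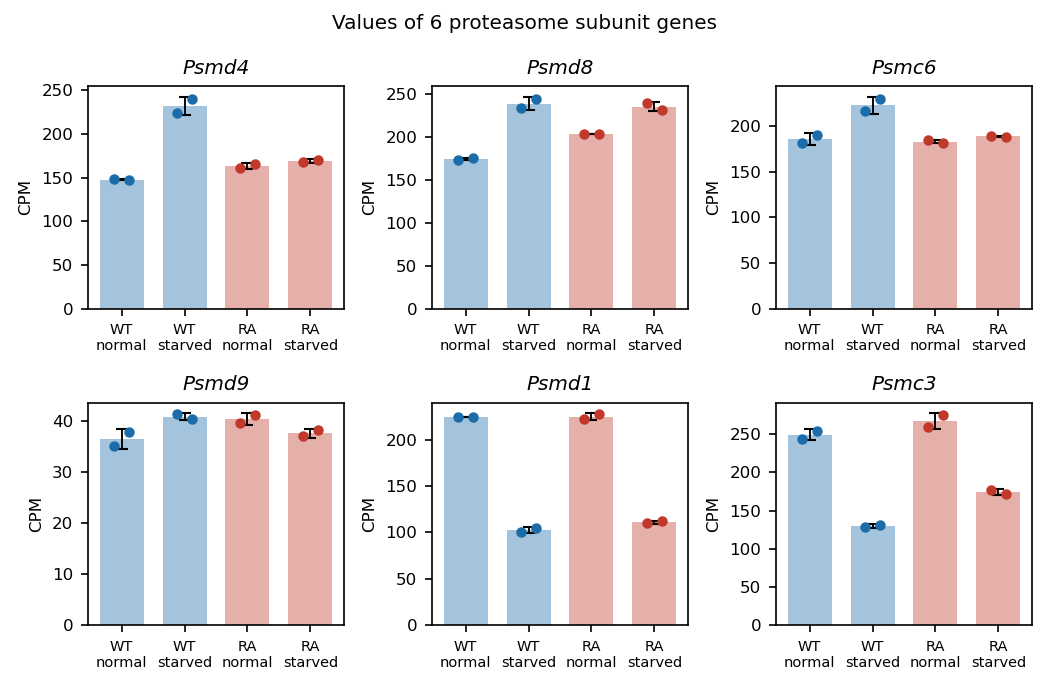
CPM of 6 members (1 panel each) in the 4 groups, with each sample as a point, the mean of 2 replicates as a bar from 0 and the SD as an error bar. Psmd4, Psmd8, Psmc6 and Psmd9 were higher in starved than in normal WT, while Psmd1 and Psmc3 were lower in starved samples of both lines.

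Psmb1, a beta ring subunit without a proteolytic site, was the member that was not called in WT, at 159 and 169 CPM in normal medium and 161 and 163 under starvation. The groups overlapped, and the change was -0.02 (SE 0.042, limma BH-adjusted p = 0.674). It was called lower with total-read scaling (-0.093, adjusted p = 0.0375). The fall of Psmb6 was not called without normal WT replicate 1 (-0.096, adjusted p = 0.13) or starved WT replicate 1 (-0.076, adjusted p = 0.179). For 7 members that fell, exons are shared with a gene on the opposite strand. The shared stretch was 405 bases for Psmb7 (with Nek6), 342 for Psmd13 (Sirt3), 252 for Psmd1 (Htr2b), 215 for Psmc3 (Slc39a13), 114 for Psma4 (AY074887), 60 for Psma5 (1700010K24Rik) and 17 for Psmd3 (Gm12356). Psmd1 also shares 301 bases with Gm21972 on its own strand.

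The same comparison in RA cells asked whether the response is seen when the methylated arginines are missing. Again most members fell: 30 of 34 were called lower and 1 higher, and 3 were not called. The summed level went from 5650 and 5865 CPM to 4160 and 4136. The median log2 change was -0.50, against 0.013 over all genes tested. Of all genes 68.7% were called, 35.0% higher and 33.7% lower, against 91.2%, 2.94% and 88.2% of the members. All 14 core genes fell, with a median of -0.56 in the alpha ring and -0.35 in the beta ring, and none rose at an unadjusted p under 0.05 or with edgeR or DESeq2 (0 calls each).

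Psmd1 was again the member that fell most, at 222 and 228 CPM in normal RA and at 110 and 112 in starved RA. Its change was -1.01 (SE 0.038, limma BH-adjusted p = 3.87e-13). Psma7, an alpha ring subunit, was at 163 and 174 CPM in normal RA and at 91.9 and 87.1 in starved RA. Starved samples were lower without overlap, and the change was -0.91 (SE 0.043, limma BH-adjusted p = 7.43e-12). Psma5, also of the alpha ring, was at 145 and 152 CPM in normal RA and at 84.7 and 84.9 in starved RA, a change of -0.80 (SE 0.043, limma BH-adjusted p = 3.45e-11).

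Only Psmd8 rose in RA, from 203 and 204 CPM to 239 and 232, a log2 change of 0.21 (SE 0.038, limma BH-adjusted p = 1.08e-04). Starved samples lay above normal ones in both lines for this gene. Psmd4 was at 160 and 165 CPM in normal RA and at 167 and 171 in starved RA, which gave 0.05 (SE 0.040, limma BH-adjusted p = 0.239). Psmc6 was at 184 and 182 CPM and then 190 and 189, which gave 0.05 (SE 0.040, limma BH-adjusted p = 0.315). With quantile normalization both were called higher in RA, Psmd4 by 0.14 (adjusted p = 0.00358) and Psmc6 by 0.13 (adjusted p = 0.00457). Psmd9, the remaining gene that was not called, was at 39.6 and 41.2 CPM in normal RA and at 37.0 and 38.2 in starved RA. The fall of Psmd10 (-0.24, limma BH-adjusted p = 0.0183) was not called without normal RA replicate 2 (-0.22, adjusted p = 0.0683), starved RA replicate 1 (-0.25, adjusted p = 0.0541) or starved RA replicate 2 (-0.23, adjusted p = 0.0798).

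The responses of the lines share no samples and can be set side by side. Of the 34 members 29 were called lower in both lines, 1 was called higher in both, and 33 changed in the same direction. Over all genes 39.2% were called lower in WT and 33.7% in RA. Calls and directions shared by the lines were not counted over all genes. Pearson's r between the responses over the members was 0.90 (n = 34 genes), against 0.78 over all 16232 genes tested. Genes within a library are not independent, so this is a description of these samples. The spread of the responses was wider in WT, with an SD over members of 0.37 against 0.26 in RA, as it was over all genes tested (0.89 against 0.62).

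**Figure D3:**
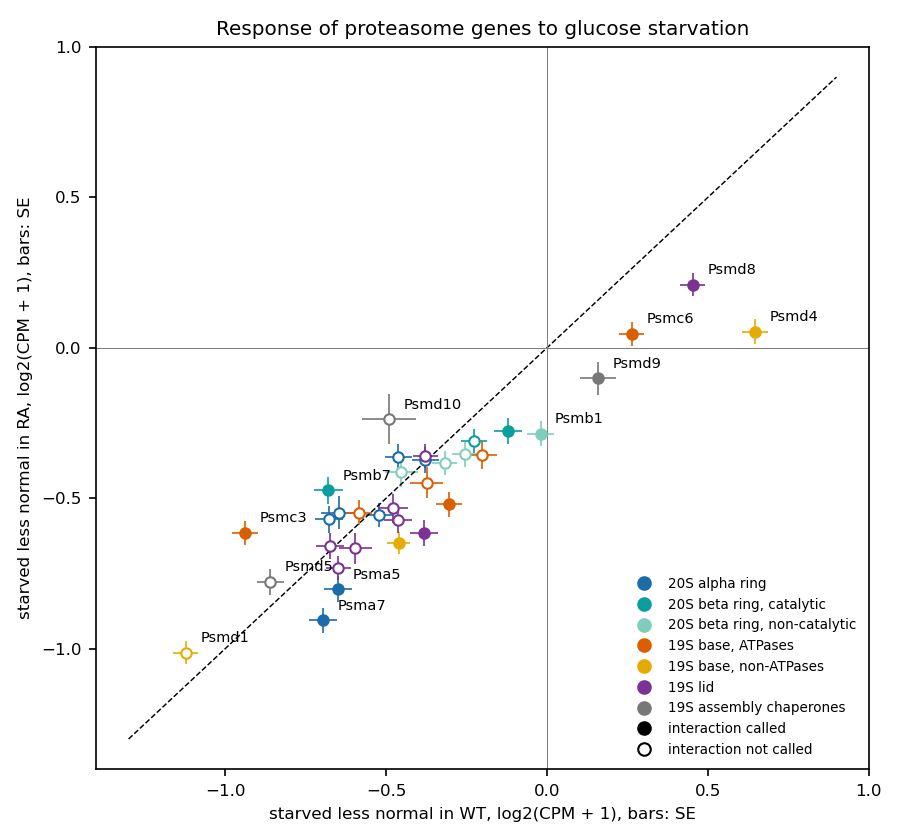
Log2 change under glucose starvation in WT (horizontal axis) and RA (vertical axis) for each of the 34 members, with SE as bars and colour by subcomplex. Filled points were called in the interaction and the dashed line marks equal change. Most members lay below 0 in both lines, while Psmd4, Psmc6 and Psmd9 were above 0 in WT and near 0 in RA.

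RA and WT were then compared in normal medium, before any starvation. Differences were small, and 8 members were called higher in RA and 0 lower. The called genes were Psma4, Psma6 and Psma7 of the alpha ring, Psmb3, Psmb4 and Psmb6 of the beta ring, and Psmd4 and Psmd8 of the cap. No member was lower at an unadjusted p under 0.05 or with edgeR or DESeq2 (0 calls each). Over all genes 9.63% were called, 6.68% higher and 2.95% lower, against 23.5% of the members, all higher. The median over members was 0.088, against 0.0075 over all genes, and 32 of 34 members had a positive difference. Of the 14 core genes 6 were called, against 2 of the 17 cap subunits, and none of the 6 ATPases was called, although 2 were higher at an unadjusted p under 0.05 (0 calls with edgeR or DESeq2).

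Psmd8 showed the largest difference, at 174 and 175 CPM in normal WT and 203 and 204 in normal RA. The lines did not overlap, and the log2 difference was 0.22 (SE 0.038, limma BH-adjusted p = 0.00112). Psma7 was at 146 and 143 CPM in WT and 163 and 174 in RA, a difference of 0.22 (SE 0.043, limma BH-adjusted p = 0.00387). Psma6 was at 109 and 117 CPM in WT and 129 and 131 in RA, a difference of 0.20 (SE 0.042, limma BH-adjusted p = 0.00558). RA was thus higher in every sample for these 3 alpha ring and lid genes. The lowest differences were those of Psmc6 (-0.02, adjusted p = 0.787), Psmd5 (-0.01, adjusted p = 0.946) and Psmd1 (0.0024, adjusted p = 0.979) by limma with BH adjustment, and their values overlapped between the lines.

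The count in normal medium depended on the processing. Median-ratio scaling, quantile normalization and total-read scaling called 1531, 1521 and 1681 of all 16232 genes. Each called 3 members (Psmd8, Psma7 and Psma6), a share not above that of all genes. Without the mean-variance trend eBayes called 590 of all genes and 0 members, and edgeR called 1555 of all genes and 5 members. Leaving out 1 sample gave 2 calls without normal WT replicate 1 (Psma6 was then not called, 0.15, adjusted p = 0.126), 3 without normal WT replicate 2, 3 without normal RA replicate 2, and 4 without starved RA replicate 1 or without starved RA replicate 2, which enter only through the shared spread.

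Under glucose starvation the lines differed in both directions. Of the 34 members 12 were called higher in RA and 6 lower, and the median was 0.0088, against -0.0081 over all genes tested. The share of members called (52.9%) was below that of all genes, of which 62.9% were called, 30.8% higher and 32.1% lower. Of the 7 alpha ring genes 5 were higher in RA (Psma1, Psma2, Psma3, Psma4 and Psma6), while Psma5 and Psma7 were not called. Of the 9 base genes 3 were higher and 4 lower. The summed level of members was 4052 and 4224 CPM in starved WT and 4160 and 4136 in starved RA.

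The largest differences above 0 were in an assembly chaperone, an ATPase and a proteolytic subunit. Psmd10, also called gankyrin, an assembly chaperone that also binds cell cycle regulators, was at 12.1 and 14.4 CPM in starved WT and 18.3 and 18.0 in starved RA. The lines did not overlap, and the log2 difference was 0.43 (SE 0.083, limma BH-adjusted p = 2.41e-04). Psmc3 was at 128 and 131 CPM in WT and 177 and 171 in RA, a difference of 0.42 (SE 0.041, limma BH-adjusted p = 1.12e-07). Psmb7, a proteolytic subunit, was at 127 and 132 CPM in WT and 160 and 154 in RA, a difference of 0.27 (SE 0.044, limma BH-adjusted p = 4.68e-05).

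The largest differences below 0 were in the base of the cap. Psmd4 was at 225 and 240 CPM in starved WT and 167 and 171 in starved RA, a difference of -0.45 (SE 0.040, limma BH-adjusted p = 3.86e-08). Psmc6 was at 217 and 230 CPM in WT and 190 and 189 in RA, a difference of -0.24 (SE 0.040, limma BH-adjusted p = 6.78e-05). For both genes each RA sample was below each WT sample. Psmd2, the other large scaffold of the base, was at 356 and 355 CPM in WT and 316 and 324 in RA, a difference of -0.15 (SE 0.036, limma BH-adjusted p = 0.0016). Psmb1, Psmc5 and Psmd13 were also called lower, by 0.14, 0.12 and 0.11 in size. Psmd8, by contrast, did not differ beyond its spread in starved cells (-0.02, SE 0.038, limma BH-adjusted p = 0.631).

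**Figure D4:**
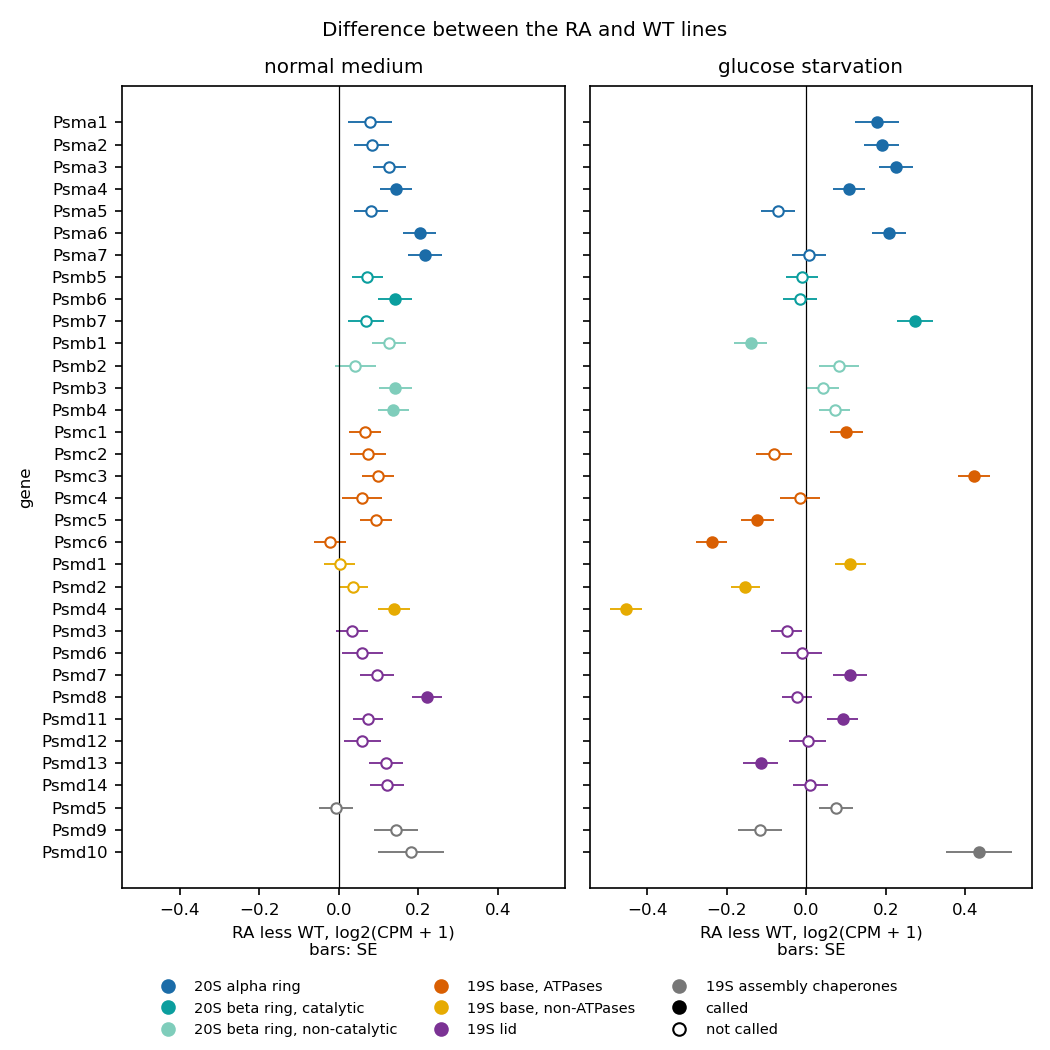
Log2 difference of RA less WT (horizontal axis, SE as bars) for each of the 34 members (vertical axis, coloured by subcomplex) in normal medium (left) and under starvation (right). Filled points were called. In normal medium all called members were above 0, while under starvation 12 were above 0 and 6 below.

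Small differences among these 18 calls were not stable. The count was 11 without starved WT replicate 1, 11 without starved RA replicate 2 and 9 without the mean-variance trend, and the split of higher and lower was 15 and 6 after quantile normalization, 14 and 5 under total-read scaling and 9 and 7 under median-ratio scaling. Over all genes the calls split into 4207 higher and 6155 lower, 5250 and 4875, and 4825 and 5464, in the same order. RA less WT in the separate media showed the same sign in 19 of 34 members (Pearson's r 0.13 over 34 genes), from comparisons that share no samples.

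The interaction, the response in RA less that in WT, tested whether the lines respond differently. Of the 34 members 13 were called, 2 higher and 11 lower in RA, and the median was -0.072, against -0.011 over all genes. The median of the members was 0.0063 after quantile normalization, which turned its sign, and -0.0011 under total-read scaling. That of all genes moved as well, to -0.062 and 0.053 in the same order. Of all genes 50.6% were called, 24.5% higher and 26.1% lower, so the members were called less widely (38.2%). The split of the member calls depended on the scaling, with 7 higher and 7 lower under quantile normalization. Under total-read scaling it was 7 higher and 6 lower. The split over all genes moved too, with 3459 higher and 4577 lower, and 4648 higher and 3353 lower, in the same order.

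Psmd4 had the largest interaction, at -0.59 (SE 0.057, limma BH-adjusted p = 2.30e-07), and was the only member called at an adjusted p under 1e-05. The study used that threshold with edgeR for WT against RA in each medium, not for an interaction. The mean of Psmd4 rose 1.57-fold in WT and 1.04-fold in RA. Psmb1 followed with -0.27 (SE 0.059, limma BH-adjusted p = 0.00136). It went from 159 and 169 CPM to 161 and 163 in WT, and from 174 and 185 CPM to 148 and 146 in RA, so that starved RA was lowest. Psmd9 had -0.26 (SE 0.078, limma BH-adjusted p = 0.0104), which was not called with total-read scaling (-0.19, adjusted p = 0.0522) or without normal WT replicate 1 (-0.21, adjusted p = 0.0623). Psmd8 and Psmc6, the other genes that rose in WT, had -0.24 (adjusted p = 0.0012) and -0.22 (adjusted p = 0.00447) in the same limma fit with BH adjustment.

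Above 0 in the interaction were Psmc3, with 0.32 (SE 0.057, limma BH-adjusted p = 1.79e-04), and Psmb7, with 0.20 (SE 0.063, limma BH-adjusted p = 0.0122). Both fell in each line, and fell further in WT. Psmb7 was not called without normal RA replicate 1 (0.14, adjusted p = 0.0539) or starved RA replicate 1 (0.18, adjusted p = 0.0589). Psmd10 had 0.25 (SE 0.118, limma BH-adjusted p = 0.0855) and was called without starved WT replicate 2 (0.37, adjusted p = 0.0161), with total-read scaling (0.32, adjusted p = 0.0295) and with edgeR (0.29, adjusted p = 0.0497).

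Other genes of the pathway were taken from a list of 42, of which 41 were tested. In starved WT 16 rose and 21 fell (39.0% and 51.2%, against 39.3% and 39.2% of all genes), and the median was -0.12. In starved RA 10 rose and 18 fell (24.4% and 43.9%, against 35.0% and 33.7%), and the median was -0.039. RA exceeded WT for 13 genes in normal medium, with 0 lower (3 at an unadjusted p under 0.05, 0 with edgeR and 1 with DESeq2), and under starvation 17 were higher and 14 lower. These were 31.7% called in normal medium, against 9.63% of all genes, and 41.5% higher and 34.1% lower under starvation, against 30.8% and 32.1%. In the interaction 13 were called higher and 14 lower (31.7% and 34.1%, against 24.5% and 26.1%). Genes of the list thus moved in both directions in each comparison of media.

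Of 7 regulators of proteasome genes 5 rose and 2 fell in starved WT, and 4 rose and 1 fell in starved RA. All 7 and 5 of 7 were thus called, where 78.6% and 68.7% of all genes were. Nfe2l1, which encodes the factor NRF1, was at 181 and 173 CPM in normal WT and 398 and 397 in starved WT, and went from 191 and 185 CPM to 474 and 467 in RA. It rose in both lines, by 1.16 in WT (SE 0.037, limma BH-adjusted p = 1.49e-14) and 1.32 in RA. Mafg, a small Maf protein that pairs with NRF factors at ARE sites, was the gene of the list that rose most in WT (1.39) and rose by 0.98 in RA. Vcp, the ATPase that draws ubiquitinated proteins and NRF1 from the endoplasmic reticulum, was at 739 and 765 CPM in normal WT and 396 and 410 in starved WT, and fell by 0.90 in WT and 0.93 in RA. NRF1 mRNA was therefore higher while 29 members were lower in both lines, and protein was not measured in these files.

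The inducible beta subunits of the immunoproteasome, which replace the standard proteolytic subunits on interferon signals, differed between the lines in both media. Psmb8 went from 2.09 and 1.57 CPM to 0.377 and 0.512 in WT, and from 4.55 and 4.19 CPM to 7.01 and 7.06 in RA. All RA samples were above all WT samples, and the difference was 0.93 in normal medium (SE 0.129, limma BH-adjusted p = 1.52e-04) and 2.48 under starvation (SE 0.129, limma BH-adjusted p = 4.35e-11). Psmb9 differed by 1.16 and 1.98, and Psmb10 by 0.66 and 1.04, in the same order. In starved WT all 3 fell, by 0.97, 0.83 and 0.21 for Psmb8, Psmb9 and Psmb10, and in starved RA Psmb8 rose by 0.58. The log2(CPM + 1) scale understates such low genes: the mean CPM in starved WT was 0.243 times that in normal WT for Psmb8 and 0.247 times for Psmb9. Under starvation the mean of RA was 15.8 times that of WT for Psmb8 and 12.6 times for Psmb9. These ratios rest on few reads in starved WT, 18 and 28 for Psmb8 and 14 and 22 for Psmb9. Both mates of a pair appear to be counted, so the read pairs behind them were fewer. The starved RA samples stood at 5.21 and 3.55 CPM for Psmb9. The call of Psmb10 in WT was not made without normal WT replicate 1 (-0.10, adjusted p = 0.292) or starved WT replicate 2 (-0.19, adjusted p = 0.0845). Psmb8 and Psmb9 are low, and the summed level of the 3 genes was 18.6 to 18.9 CPM in starved WT and 46.9 to 51.9 in starved RA.

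The PA28 activator, a cap that opens the core without ubiquitin, showed the same pattern for its cytosolic subunits. Psme1 went from 38.5 and 40.2 CPM to 27.3 and 30.6 in WT, and from 52.7 and 54.2 CPM to 63.5 and 64.9 in RA. It was higher in RA by 0.43 in normal medium and by 1.12 under starvation (SE 0.057, limma BH-adjusted p = 2.83e-11). Psme2 was higher by 0.58 and 1.16. The nuclear form Psme3 went the other way, at 134 and 135 CPM in starved WT and 115 and 114 in starved RA, a difference of -0.23 (SE 0.037, limma BH-adjusted p = 4.90e-05). Psme4, which encodes the activator PA200, fell in both lines, by 0.12 and 0.22, and the fall in WT was not called without normal WT replicate 1 (-0.12, adjusted p = 0.0605) or starved WT replicate 2 (-0.11, adjusted p = 0.0588). The inhibitor Psmf1 was higher in starved RA by 0.47.

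**Figure D5:**
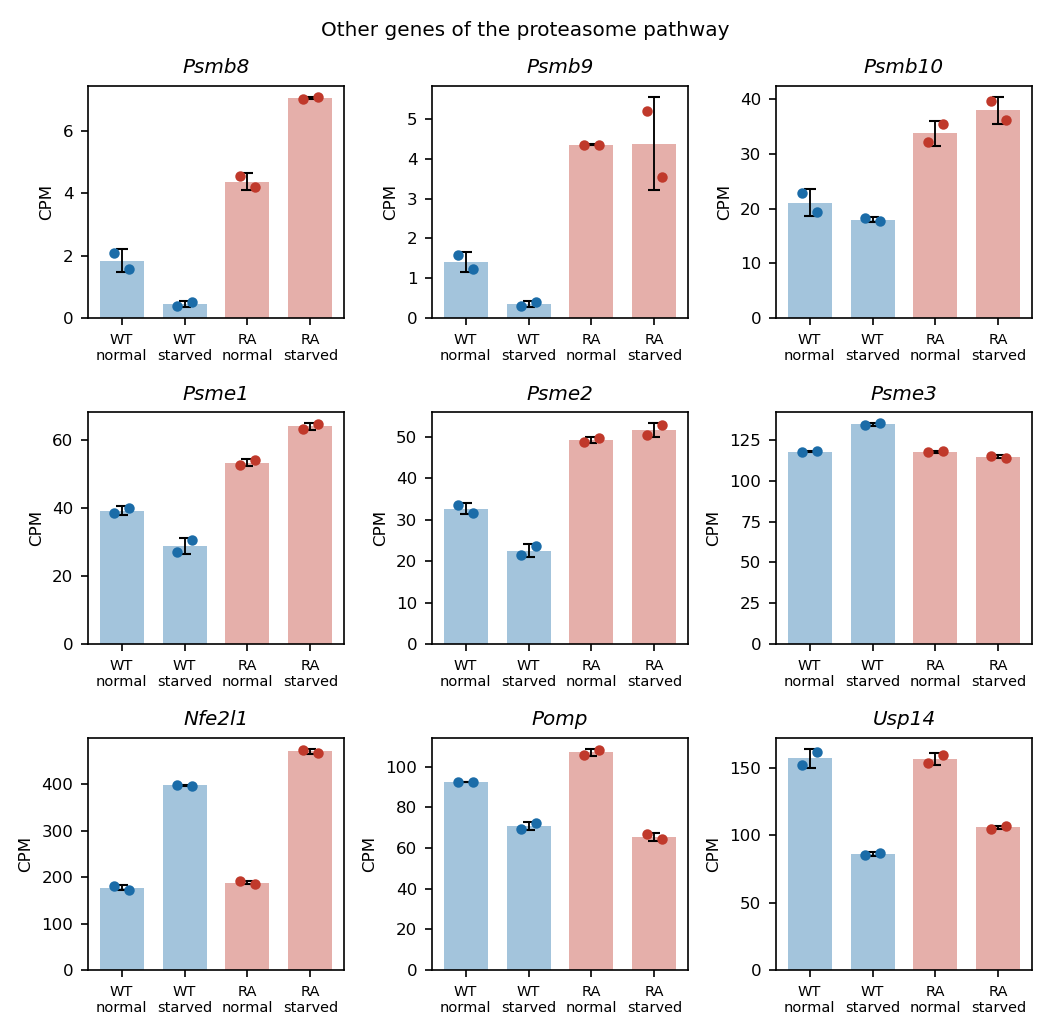
CPM of 9 genes of the pathway that are not members (1 panel each) in the 4 groups, with samples as points, the mean of 2 replicates as a bar from 0 and the SD as an error bar. Psmb8, Psmb9, Psmb10, Psme1 and Psme2 were higher in RA than in WT in both media, and Nfe2l1 was higher in starved samples of both lines.

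Of 5 assembly chaperones of the core 2 rose and 2 fell in starved WT, and 1 rose and 2 fell in starved RA. These shares called, 80.0% and 60.0%, were near those of all genes (78.6% and 68.7%). Pomp, the chaperone of core maturation, was at 92.4 and 92.6 CPM in normal WT and 69.6 and 72.2 in starved WT, and went from 106 and 108 CPM to 66.8 and 64.3 in RA. It fell by 0.38 in WT and by 0.70 in RA (SE 0.042, limma BH-adjusted p = 1.80e-10). Adrm1, a ubiquitin receptor of the cap named outside the Psm series, fell by 0.25 and 0.33. Usp14, a deubiquitinase bound to the cap, was at 152 and 162 CPM in normal WT and 85.1 and 87.1 in starved WT, and fell by 0.86 in WT and 0.56 in RA. Uchl5, the other such deubiquitinase, fell by 0.28 in WT and 0.78 in RA. All 4 ubiquitin enzymes bound to the particle were called lower in each line, where 39.2% (WT) and 33.7% (RA) of all genes were.

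The interaction was called for 5 of 6 genes of ubiquitin precursors and activating enzymes (2 above and 3 below 0) and for 4 of 6 shuttle factors (1 above and 3 below 0), shares of 83.3% and 66.7% against 50.6% of all genes. Ubb, a ubiquitin precursor, was at 908 and 916 CPM in normal WT and 1386 and 1424 in starved WT, and went from 1003 and 1064 CPM to 1039 and 972 in RA. It rose by 0.62 in WT and differed in response by -0.66 (interaction, SE 0.063, limma BH-adjusted p = 2.26e-07). Maff, another small Maf protein, had -0.70. Uba6, an enzyme that activates ubiquitin, rose by 0.48 in WT and 1.14 in RA. Ubqln4, which carries ubiquitinated proteins to the proteasome, was lower in starved RA by 0.65 in size, the lowest difference of the list there.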

How the data were processed

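RNA-seq libraries were prepared from polyA RNA with the TruSeq RNA v2 kit and sequenced as paired-end reads. Per the submitters' processing notes TopHat2 (version 2.0.9), the mm9 genome, bedtools and edgeR were used. The read counter, annotation, strand handling and any filter are not given in the sources used here. The authors deposited a signal per gene symbol, the read count in CPM of a library size that they scaled per sample. Column sums ran from 965845 to 1029723. All nonzero values (100%) were whole reads within a tolerance of 0.05, and these reads were recovered. The planned unit was CPM, and the same test was used for the scaled CPM. Both mates of a pair appear to be counted, since 78.2% to 80.5% of counts from 1 to 9 were even. Intervals of counting error are not given, and the number of reads limits precision only for the lowest members.

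Genes with at least 1 CPM in at least 2 samples were tested on log2(CPM + 1), a scale that understates the change of low genes, with limma (version 3.58.1, R version 4.3.3). All 8 samples entered the fit, with 1 mean for each group, and the variances were moderated by eBayes along a mean-variance trend. The p-values were 2-sided and were adjusted by Benjamini and Hochberg's method (BH) within each of 5 contrasts, over all 16232 genes. Genes were called at an adjusted p under 0.05. Columns named minus and plus were read as normal medium and starvation. Alternatives changed the pseudocount, filter, scaling, samples in the fit, replicate block, trend, threshold and samples left out, or used edgeR (version 4.0.16) or DESeq2 (version 1.42.0) on recovered reads. The fits were tested on simulated data that had the same spread in all groups. The replicates here differed unequally (chi-square per degree of freedom 3.49 in normal WT and 16.8 in starved RA). No conclusion is therefore drawn from that simulation. The members, lists and tests were chosen with earlier results of these data known. Members at the ends of each contrast (3 each) are given in full, and of the pathway list the 2 at each end and a fixed set of genes. Some genes of that list are counted but not reported by name here. Exon overlaps and lengths came from GENCODE M21 on GRCm38 and promoters from RefSeq.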

Additional observations from a re-analysis of the deposited data

Results flagged for a closer look

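The interaction test found responses to starvation that differ between RA and WT for 13 members and for 27 of 41 pathway genes (limma, BH-adjusted p under 0.05, with 50.6% of all genes called). Values are the log2 response in RA less that in WT. Among members, Psmd4 had -0.59, Psmb1 -0.27, Psmd9 -0.26, Psmd8 -0.24, Psmd13 -0.23, Psmc6 -0.22, Psmc5 -0.22, Psma7 -0.21, Psmd2 -0.19, Psmb6 -0.16 and Psma5 -0.15, while Psmb7 had 0.20 and Psmc3 0.32. Some of these calls were not stable. Psmb6 was not called with edgeR (-0.13, adjusted p = 0.0899) or DESeq2 (-0.16, adjusted p = 0.0611). Psma5 was not called with edgeR (-0.13, adjusted p = 0.0946) or DESeq2 (-0.16, adjusted p = 0.0594). With quantile normalization Psma5 (-0.054), Psmb6 (-0.086), Psma7 (-0.11) and Psmd2 (-0.086) were not called.

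Among the other genes of the pathway that are reported by name, Maff had -0.70, Ubb -0.66, Ubqln4 -0.54, Uchl5 -0.50, Mafg -0.41, Ddi2 -0.40, Rps27a -0.39, Ubqln1 -0.35, Pomp -0.32, Psmg3 -0.28, Txnl1 -0.26, Mafk -0.23 and Psme3 -0.23. Above 0, Nfe2l1 had 0.16, Ube3c 0.25, Usp14 0.30, Psmf1 0.32, Psmb10 0.38, Psme2 0.58, Uba6 0.66, Psme1 0.69, Ngly1 0.75, Psmb9 0.83 and Psmb8 1.55. With 2 samples per group no single sample could be tested as an outlier.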

How the results depend on the processing

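Under starvation, leaving out 1 sample gave, with rises and falls counted together, 31 to 33 called members in WT and 30 to 31 in RA, and 34 to 37 and 25 to 29 pathway genes. The median over members was -0.50 to -0.39 in WT and -0.53 to -0.43 in RA without 1 sample, -0.53 in WT with total-read scaling, -0.50 in WT with edgeR and -0.44 in RA with quantile normalization. RA against WT in normal medium gave 3 member calls without the filter and with median-ratio, quantile or total-read scaling. Under these 3 scalings the share of members called was not above that of all genes (1531, 1521 and 1681 of 16232). This comparison also gave 3 at an adjusted p under 0.01 and with DESeq2, 5 with edgeR, 0 without the trend and 0 at 1e-05. Without 1 sample it gave 2 to 8 members, 7 to 14 pathway genes and a median of 0.062 to 0.13, and the median was 0.045 after quantile normalization and 0.041 under total-read scaling. Under starvation 9 members were called without the trend, 10 at 0.01 and 2 at 1e-05, and without 1 sample 11 to 18 members and 26 to 31 pathway genes, with a median of -0.0019 to 0.062 (0.052 with quantile normalization). In the interaction 8 members were called without the trend and 1 at 1e-05, and without 1 sample 10 to 14 members and 24 to 27 pathway genes, with a median of -0.11 to -0.039. That median was 0.0063 after quantile normalization, which turned its sign, and -0.0011 under total-read scaling, against -0.062 and 0.053 over all genes. Pathway calls at 1e-05 were 15 in starved RA, 1 and 19 between the lines in normal and starved medium and 6 in the interaction, and without the trend 6 in normal medium. Over all genes the median of RA against WT in normal medium was -0.010 after quantile normalization and -0.035 under total-read scaling. Under starvation it was -0.078 after quantile normalization. The causes were not tested.

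The labels give every group the same replicate numbers, and the deviations of same-numbered samples correlated at -0.0076 to 0.16 over all genes and at -0.027 to 0.30 over genes with a mean above 10 CPM. Not every pair of groups was above 0.1 on either set, so the numbers were not taken as pairs. With the replicate number as a block 33, 31, 11, 18 and 14 members were called in the order WT starvation, RA starvation, RA against WT in normal medium, the same under starvation and the interaction, against 33, 31, 8, 18 and 13 without it. Replicates of every group differed by more than sampling noise of single reads (chi-square per degree of freedom 3.49 to 16.8). Both mates of a pair appear to be counted, which raises this value.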
